A study of Mus musculus with 3 samples.

Results

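The haemoglobin-dominated barcodes were the 282 of 2310 deposited barcodes of the Pdgfra-Cre; TERT fl/fl library in which the adult globin genes Hba-a1, Hba-a2, Hbb-bs and Hbb-bt together took at least 50% of the unique molecular identifiers (UMIs, each standing for 1 captured RNA molecule), with no minimum number of genes. They made up 12.2% of that library's barcodes (exact 95% interval 10.9 to 13.6) and were drawn from 10789 barcodes in the whole series. The study compared stromal and vascular cells of mouse inguinal fat, a pad under the skin of the groin, in 3 single-cell libraries. Each library was 1 sample of its own genotype, so genotype and library cannot be told apart and no test between libraries was made. The first carried a floxed telomerase gene and a Cre recombinase driven by the Pdgfra promoter (Pdgfra-Cre; TERT fl/fl, called Pdgfra-Cre below), the second the same floxed gene with a Cre driven by the Pdgfrb promoter (Pdgfrb-Cre; TERT fl/fl, called Pdgfrb-Cre), and the third had intact telomerase (TERT +/+). Both promoters are known for their activity in mesenchymal cells, and neither was chosen for the red cell lineage. The labels give neither the age nor the number of animals, and the TERT +/+ title also holds the letters PBS, which they do not explain. All 3 preparations went through removal of dead cells and of red blood cells before the 10x 3' v3 chemistry.

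Reticulocytes are young red cells that have expelled their nucleus. They can make no new RNA, and they run on a store of messenger RNA made earlier, mostly for the alpha and beta chains of haemoglobin, while they finish haem synthesis and clear their mitochondria and ribosomes. That store is lost as they become mature red cells, so reticulocytes and not mature red cells are the stage at which red cells in a tissue still yield much RNA. The barcodes were chosen by their UMI counts of the 4 globins, so the globin share only describes that choice, and the remaining RNA is what the choice did not use. These were called reticulocyte-like by their RNA alone.

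The control sequences of the RNAs that led these barcodes are shown first, for the 3 globin genes whose windows differ and for the 2 genes outside the globins described first below. Each stretch is the 250 bases before the RefSeq start of the gene, 5′ to 3′ in the direction of the gene, on build GRCm38.p6. Capitals mark AGATAA or TGATAA, the forms bound by GATA factors, and CCNCNCCC, the form bound by KLF factors, on either strand. Hba-a1 lies at chr11:32283422-32283671 (+), Hbb-bs at chr7:103827929-103828178 (-), Hbb-bt at chr7:103813924-103814173 (-), Alas2 at chrX:150547167-150547416 (+) and Bpgm at chr6:34476106-34476355 (+).
Hba-a1: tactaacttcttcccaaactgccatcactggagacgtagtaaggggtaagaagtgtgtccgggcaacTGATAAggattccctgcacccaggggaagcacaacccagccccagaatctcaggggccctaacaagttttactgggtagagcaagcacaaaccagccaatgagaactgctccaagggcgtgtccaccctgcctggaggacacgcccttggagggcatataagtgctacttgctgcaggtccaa
Hbb-bs: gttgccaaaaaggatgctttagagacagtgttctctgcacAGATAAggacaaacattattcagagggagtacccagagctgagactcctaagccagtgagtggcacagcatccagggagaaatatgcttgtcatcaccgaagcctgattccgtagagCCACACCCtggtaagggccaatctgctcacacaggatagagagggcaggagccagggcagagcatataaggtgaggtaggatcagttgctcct
Hbb-bt: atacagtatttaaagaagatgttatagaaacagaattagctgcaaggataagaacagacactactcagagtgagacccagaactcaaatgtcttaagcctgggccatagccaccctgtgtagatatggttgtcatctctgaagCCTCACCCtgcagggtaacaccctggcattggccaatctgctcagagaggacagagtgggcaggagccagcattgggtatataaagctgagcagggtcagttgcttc
Alas2: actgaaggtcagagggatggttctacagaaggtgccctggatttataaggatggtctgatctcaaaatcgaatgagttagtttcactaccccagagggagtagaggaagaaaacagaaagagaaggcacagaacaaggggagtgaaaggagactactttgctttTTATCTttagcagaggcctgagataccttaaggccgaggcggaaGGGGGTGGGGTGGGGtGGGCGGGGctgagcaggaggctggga
Bpgm: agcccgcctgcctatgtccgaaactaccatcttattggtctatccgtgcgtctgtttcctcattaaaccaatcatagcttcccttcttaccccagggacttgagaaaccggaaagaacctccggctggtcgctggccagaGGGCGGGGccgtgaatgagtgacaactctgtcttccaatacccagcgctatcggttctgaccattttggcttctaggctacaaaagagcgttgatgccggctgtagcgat
The Hba-a2 window held the same letters as that of Hba-a1 over all 297 bases that could be aligned of 300, and is not printed again. AGATAA or TGATAA stood in the Hba-a1, Hbb-bs and Alas2 windows and in 18.6% of all 32851 promoter windows of 300 bases in the same table. CCNCNCCC stood in the Hbb-bs, Hbb-bt and Bpgm windows, and 4 matches, the first 3 overlapping one another, stood in that of Alas2. It was found in 49.5% of all windows. A match is a description of the letters and not a bound site.

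The libraries held 14438471 UMIs (Pdgfra-Cre), 30826733 UMIs (Pdgfrb-Cre) and 13352288 UMIs (TERT +/+), and every deposited barcode had at least 500 UMIs. The targeted gene, Tert, gave 7 UMIs in the Pdgfra-Cre library, 10 in the Pdgfrb-Cre library and 16 in the TERT +/+ library, too few to check the labels. Libraries shared between 1 and 5 barcodes, and none of them was haemoglobin-dominated. All intervals (95% level) reflect counting error and nothing else.

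Nearly all haemoglobin RNA of the Pdgfra-Cre library sat in these barcodes. The 4 globin genes took 11.1% of UMIs in the Pdgfra-Cre library, 0.0648% in the Pdgfrb-Cre library and 0.0859% in the TERT +/+ library. Of the 1599921 globin UMIs of the Pdgfra-Cre library, 98.4% were in the 282 barcodes. The same rule found 3 of 4355 barcodes in the Pdgfrb-Cre library (0.0689%, interval 0.0142 to 0.201) and 2 of 4124 in the TERT +/+ library (0.0485%, 0.00587 to 0.175). All 3 libraries had a red cell removal step per the labels, and how complete it was in each was not tested.

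**Figure D1:**
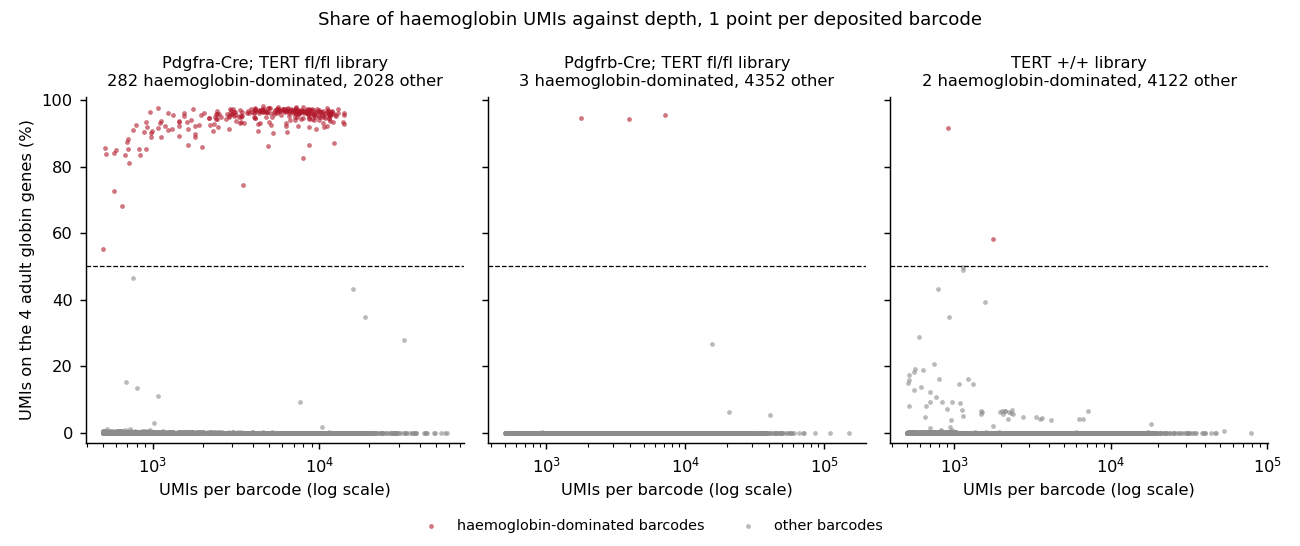
Share of a barcode's UMIs on the 4 adult globin genes (vertical axis, percent) against its UMIs (horizontal axis, log scale) in the Pdgfra-Cre, Pdgfrb-Cre and TERT +/+ libraries. Each point is 1 barcode, red for haemoglobin-dominated and grey for other barcodes, and the dashed line is the 50% rule. The Pdgfra-Cre library has 282 red points, the Pdgfrb-Cre library 3 and the TERT +/+ library 2.

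The globin share of the 282 barcodes ran from 55.3% to 98.1%, with a median of 95.8%. They held 503 to 14138 UMIs (median 5617), of which only 27 to 1585 (median 217) came from genes other than the 4 globins. The other barcodes had a median of 4196 UMIs. A haemoglobin-dominated barcode showed 22 to 744 genes (median 89.5), against a median of 1564 genes in the other barcodes. With every barcode drawn down to 100 non-haemoglobin UMIs, which left out 34 of the 282, the median was 51.1 genes in haemoglobin-dominated barcodes and 83.5 genes in the others. In all, 279 of the 282 had under 500 genes, so a 500-gene minimum would have removed them.

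The threshold lay in a thinly filled range. The members nearest to it had 55.3%, 68.3%, 72.6% and 74.5% haemoglobin UMIs. Just outside it lay barcodes at 46.6%, 43.2%, 34.8% and 28.0%. The last 3 of these were large, with 2965 to 4707 genes and 9035 to 23348 non-haemoglobin UMIs. The barcode at 34.8% had 552 UMIs of Gsn and 317 of Dcn, both stromal, and that at 28.0% had 562 of Fabp4, an endothelial and adipose fatty acid carrier. These 4 held 22890 of the 26322 globin UMIs outside the haemoglobin-dominated barcodes. The remaining 2024 barcodes shared 3432, and the median of the other barcodes was 1 globin UMI at every depth, in barcodes of 500 to 1000 UMIs as in those of 30000 and more. In the Pdgfrb-Cre and TERT +/+ libraries that median was 0.

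Of the 1573599 globin UMIs in the 282 barcodes, 385835 (24.5%) were of Hba-a1, 285378 (18.1%) of Hba-a2, 758295 (48.2%) of Hbb-bs and 144091 (9.16%) of Hbb-bt. Hba-a1 and Hba-a2 encode the adult alpha chain and Hbb-bs and Hbb-bt the adult beta chains. Alpha RNA made up 42.7% of the total (42.6 to 42.7) and ran from 26.1% to 82.5% between barcodes, with a median of 42.7%. The lowest and the highest share were in barcodes of few globin UMIs, though a barcode of 7330 globin UMIs had 26.7%. In the quartile with the fewest globin UMIs the middle 90% of barcodes spanned 33.5% to 69.4%. In the quartile with the most it spanned 38.4% to 46.9%. The spread of the chain ratio was thus narrower in the deeper barcodes. Its level differed too, with alpha RNA at 48.6% (48.3 to 48.9) in the quartile with the fewest globin UMIs, then 43.0%, 41.3% and 42.6%.

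The minor beta gene took a larger share in the barcodes with more globin RNA. Hbb-bt was 8.09% of beta UMIs in the quartile of barcodes with the fewest globin UMIs (7.85 to 8.33), then 10.8% (10.7 to 11.0), 15.9% (15.8 to 16.1) and 19.0% (18.9 to 19.1) in the quartile with the most. Over the 282 barcodes its share had a Spearman correlation of 0.70 with globin UMIs, which describes cells of 1 library and shares its counts with that total. Single barcodes ran from 0 to 26.8%, with a median of 14.8%. The Hba-a2 share of alpha UMIs rose far less, at 41.8% (41.4 to 42.3), 42.4%, 42.5% and 42.7% (42.5 to 42.8) over the same quartiles. Hbb-bs and Hbb-bt differed at 42 of 621 aligned bases of their GENCODE transcripts, 33 of them within the last 150 bases of Hbb-bt, where 3' reads start.

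The 2 alpha genes are near copies. Their transcripts were identical at 537 of 538 aligned bases, with 1 difference and 16 unaligned end bases within the last 150 bases of Hba-a2, so the split of reads between them is uncertain. Hba-a2 took 42.5% of alpha UMIs in the Pdgfra-Cre library (42.4 to 42.6), 43.0% in the Pdgfrb-Cre library (41.9 to 44.1) and 2.75% in the TERT +/+ library (2.32 to 3.24). Within the haemoglobin-dominated barcodes the values were 42.5% in the Pdgfra-Cre library, 43.3% in the 3 barcodes of the Pdgfrb-Cre library and 3.14% in the 2 barcodes of the TERT +/+ library. Both libraries with a Cre thus had the same split, and the TERT +/+ library had nearly all its alpha UMIs on Hba-a1. The Hbb-bt share of beta UMIs differed less, at 16.0% (15.9 to 16.1), 11.2% (10.6 to 11.7) and 12.8% (12 to 13.6) in the same order.

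**Figure D2:**
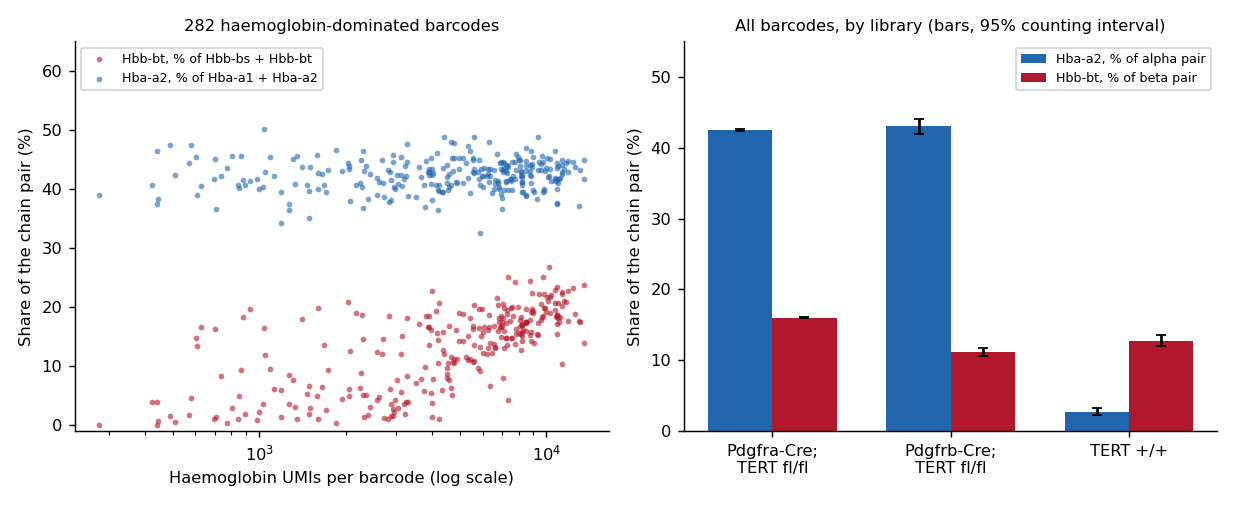
Left, the Hba-a2 share of alpha UMIs (blue) and the Hbb-bt share of beta UMIs (red) in each of the 282 haemoglobin-dominated barcodes (percent) against its haemoglobin UMIs (log scale). Right, the same shares over all barcodes of the Pdgfra-Cre, Pdgfrb-Cre and TERT +/+ libraries, with exact 95% counting intervals as bars. The red points run from 0 to 26.8% and are higher where there is more haemoglobin RNA, while the blue bars are 42.5%, 43.0% and 2.75%.

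Embryonic globins were close to absent. Hbb-y, an embryonic beta chain, had 1 UMI in the 282 barcodes, and Hba-x, Hbb-bh1 and Hbb-bh2 had 0. The theta-like genes Hbq1b and Hbq1a had 27 and 15 UMIs in the haemoglobin-dominated barcodes, in 25 and 15 of them, against 1 and 0 UMIs in the other barcodes.

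Outside the globins the 282 barcodes held 78034 UMIs, against 12760516 in the other 2028 barcodes. Levels below are CPM, the UMIs of a gene for every 1000000 non-haemoglobin UMIs of a whole group, and 1 UMI in the haemoglobin-dominated barcodes is worth 12.8 CPM. The 3' method tags each molecule once near its end, so CPM needs no correction for transcript length. Genes entered the comparison with at least 10 UMIs seen or expected in the haemoglobin-dominated barcodes, which 1255 genes did. On a log2 scale with 50 CPM added to both sides, 169 of them (13.5%) were higher by at least 1, 827 (65.9%) were lower by at least 1, and the median was -1.32. A gene scarce in the other barcodes could enter only by being high here, so no count among genes that entered is evidence of a direction.

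A few genes filled much of this RNA. The 10 genes with the most UMIs held 42.4% of it in haemoglobin-dominated barcodes and 3.47% in the others. Alas2, the erythroid enzyme of the first step of haem synthesis, gave 29064 CPM (27880 to 30286) in haemoglobin-dominated barcodes and 2.82 CPM (1.98 to 3.91) in the others, a ratio of 10302 (7419 to 14747). It was seen in 251 of the 282 barcodes and in 10 of the 2028 others. Of its 36 UMIs in the others, 29 lay in the 4 barcodes of 28.0% to 46.6% haemoglobin. Without those 4, a comparison chosen after seeing the data, the others had 0.551 CPM (0.221 to 1.13) of Alas2 and the ratio was 52795 (25582 to 131464). At 100 non-haemoglobin UMIs per barcode, 88.2% of haemoglobin-dominated barcodes and 0.0316% of the others would show it. The level of Alas2 was thus far lower in the other barcodes, which had a median of 4196 non-haemoglobin UMIs against 217 here. How much of it was free RNA was not tested.

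**Figure D3:**
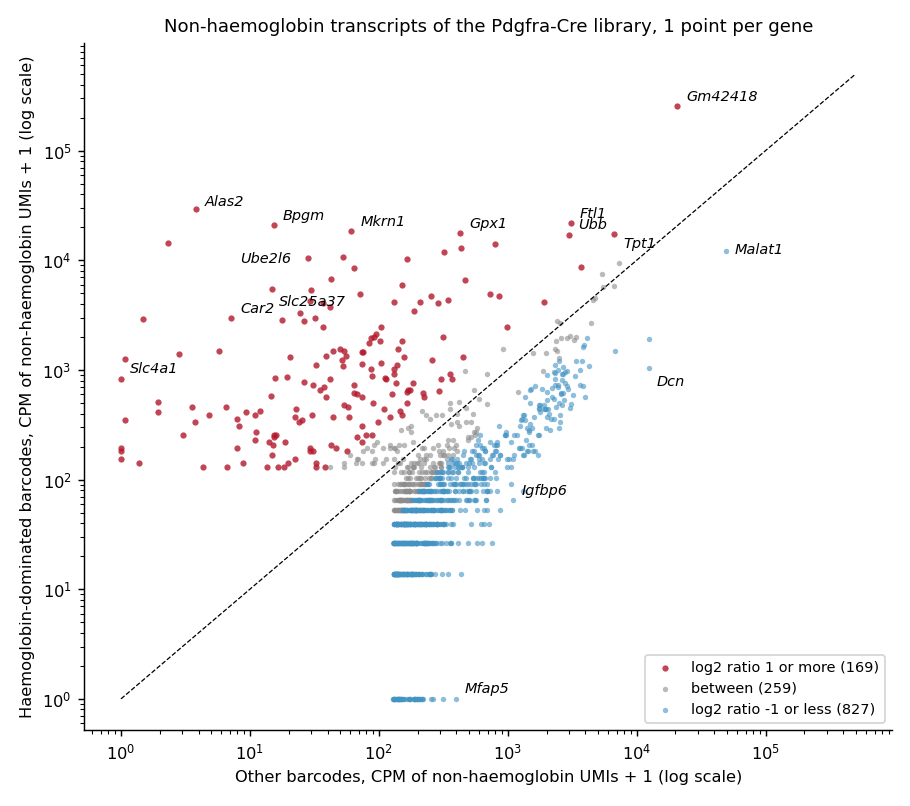
CPM of non-haemoglobin UMIs plus 1 in haemoglobin-dominated barcodes (vertical axis) against other barcodes (horizontal axis) of the Pdgfra-Cre library, both on log scales, for the 1255 genes that entered. Red points are the 169 genes with a log2 ratio of at least 1, blue the 827 at -1 or under and grey the rest, and the dashed line marks equal levels. Alas2 and Bpgm lie far above the line at the left, Gm42418 at the top right and Dcn below the line.

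The set of 26 erythroid genes other than globins, of which 24 are in the files under the symbols listed, took 13.5% of non-haemoglobin UMIs in haemoglobin-dominated barcodes (13.3 to 13.7) and 0.0405% in the others (0.0394 to 0.0417). This sum runs over all listed genes, whether or not they entered. Of the list, 15 entered and all were higher, where 13.5% of all entered genes were. Those scarce in the other barcodes could enter only by being high here. Another 6 had no UMI in the 282 barcodes, namely Gata1, Klf1, Rhag, Ermap, Sptb and Trim58. A UMI of the list was seen in 275 of the 282 barcodes, with a median of 28 UMIs each, and its summed UMIs had a Spearman correlation of 0.90 with globin UMIs.

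Haem synthesis was represented by its erythroid enzymes and carriers. The 14 genes of the list took 4.42% of non-haemoglobin UMIs in haemoglobin-dominated barcodes (4.27 to 4.56) and 0.0365% in the others (0.0354 to 0.0376). Of these genes 5 entered, all higher, where 13.5% of all entered genes were. Besides Alas2 they were Slc25a37, the mitochondrial iron importer, with 5421 CPM in haemoglobin-dominated barcodes against 13.7 CPM in the others (395-fold, 331 to 474), and Fech, which sets iron into the haem ring, with 4203 against 28.1 CPM (149-fold, 128 to 174). Slc25a39, a mitochondrial carrier, followed with 3780 against 40.8 CPM and Glrx5, of iron-sulphur cluster assembly, with 1499 against 53.1 CPM. Enzymes of the middle steps had few UMIs: Alad had 1, Ppox and Cpox 2 each, Urod 6 and Uros 0. Such counts do not mean a lower share at this depth. Urod was 3.61-fold higher than in the others (1.31 to 7.95). The ratios of Ppox, Cpox and Alad were 2.39, 1.33 and 0.505, from too few UMIs to tell a difference.

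Genes of red cell metabolism and protection from oxidation took 4.95% of non-haemoglobin UMIs in haemoglobin-dominated barcodes (4.8 to 5.10) and 0.161% in the others (0.158 to 0.163). Of 15 listed genes 9 entered, 7 of them higher and 2 in between, where 13.5% of all entered genes were higher. Bpgm makes the phosphate that loosens oxygen from haemoglobin, and it gave 20965 CPM in haemoglobin-dominated barcodes (19961 to 22006) and 14.3 CPM in the others (12.3 to 16.6), a ratio of 1462 (1254 to 1713). Gpx1, a glutathione peroxidase, had 17633 against 427 CPM (41.3-fold, 38.9 to 43.8). Car2, a carbonic anhydrase, had 2960 against 6.19 CPM (478-fold, 369 to 625), and Prdx2, a peroxiredoxin of red cells, had 4178 against 209 CPM (a ratio between 17.8 and 22.4). Cat, the catalase gene, and Blvrb, a biliverdin reductase, were 35.0-fold and 18.2-fold higher. The glycolytic genes Pgk1 and Pgam1 had no UMI in the 282 barcodes, at least 2.07-fold and 3.05-fold lower than the other barcodes with the floor of 3 UMIs, and Sod1 had 5 UMIs.

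Genes of the protein and organelle clearance that ends the reticulocyte stage took 8.02% of non-haemoglobin UMIs in haemoglobin-dominated barcodes (7.83 to 8.21) and 0.604% in the others (0.600 to 0.609). Of its 17 genes 14 entered, 13 higher and 1 lower, where 13.5% of all entered genes were higher and 65.9% lower. Mkrn1, a ubiquitin ligase, had 18351 CPM in haemoglobin-dominated barcodes against 60.3 CPM in the others (305-fold, 279 to 333), and Ube2l6, a conjugating enzyme for ubiquitin and ISG15, had 10534 against 27.4 CPM (384-fold, 339 to 436). Bnip3l, the mitochondrial receptor through which reticulocytes lose mitochondria, had 10188 against 164 CPM (62.0-fold, 57.0 to 67.3). Ube2o, the ligase that removes ribosomal proteins in these cells, had 2858 against 16.6 CPM (172-fold, 142 to 209), and Gabarapl2, an autophagosome protein, had 5920 against 151 CPM. Ubb, a ubiquitin gene, had 17134 against 2988 CPM (5.73-fold, 5.43 to 6.06).

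Membrane and skeleton genes were fewer and more unequal. The 23 listed genes took 1.05% of non-haemoglobin UMIs in haemoglobin-dominated barcodes (0.980 to 1.12) and 0.108% in the others (0.107 to 0.110), and 11 of them had no UMI in the 282 barcodes. Another 7 entered, 5 higher, 1 lower and 1 in between, where 13.5% of all entered genes were higher and 65.9% lower. Epb41, protein 4.1 of the membrane skeleton, held 527 of the list's 820 UMIs and was 161-fold higher (143 to 182). Slc4a1, the band 3 anion exchanger, had 65 UMIs in 38 haemoglobin-dominated barcodes and none in the others, at least 3543-fold higher with the floor of 3 UMIs over the group. Cd47, present on most cells, was lower at 89.7 against 394 CPM.

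Iron genes were led by storage. The list took 3.1% of non-haemoglobin UMIs in haemoglobin-dominated barcodes (2.98 to 3.22) and 0.872% in the others (0.867 to 0.877). Ftl1, the ferritin light chain, gave 21849 against 3082 CPM (7.09-fold, 6.75 to 7.44), while Fth1, the heavy chain, gave 7458 against 5341 CPM (1.40-fold, 1.28 to 1.52). Ncoa4, which carries ferritin to breakdown, gave 1461 against 73.7 CPM. Tfrc, the transferrin receptor that takes up iron in erythroid cells, had 12.8 CPM (0.324 to 71.4), from 1 UMI, against 19.6 CPM (17.2 to 22.2), so no difference was detectable at this depth.

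Genes of a dividing or transcribing erythroid precursor were few in UMIs, but neither list took a lower share than in the other barcodes. The 12 erythroid transcription factors had 32 UMIs in all, 0.0410% of non-haemoglobin UMIs (0.0281 to 0.0579) against 0.0276% in the other barcodes (0.0267 to 0.0285). Lmo2 held 16 of the 32 and was 4.96-fold higher (2.81 to 8.12), and Klf3 was lower with 3 UMIs. Gata1, Klf1 and Gfi1b had none, and Gata1 and Gfi1b had none in the other barcodes either, so neither could be compared. The 13 proliferation genes took 0.182% (0.153 to 0.214) against 0.0981% in the others (0.0964 to 0.0999). Among them Ube2c, a conjugating enzyme of mitotic exit, held 115 of 142 UMIs and was 308-fold higher (224 to 428). Mki67 and Ccnb1 had no UMI, Top2a 4, and Tubb5, Hmgb2 and H2afz were lower.

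**Figure D4:**
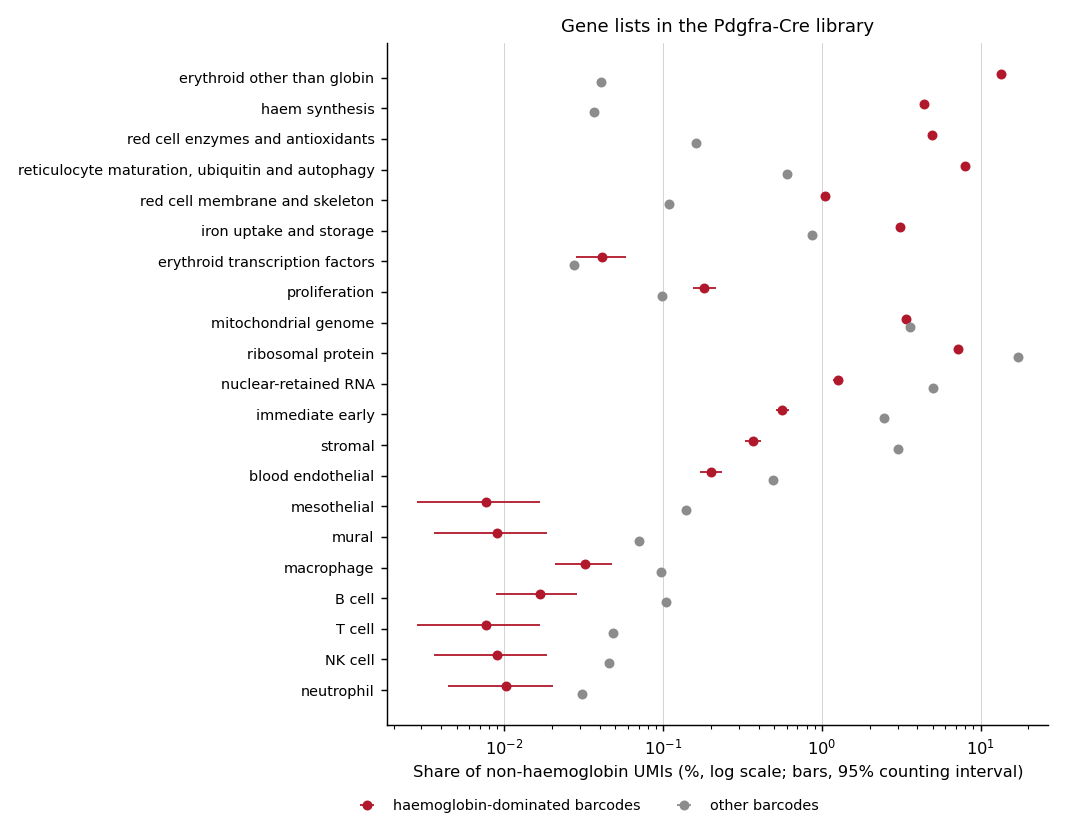
Share of non-haemoglobin UMIs (percent, log scale) taken by each gene list in haemoglobin-dominated barcodes (red) and other barcodes (grey) of the Pdgfra-Cre library, with exact 95% counting intervals as bars. The red cell lists at the top are higher in haemoglobin-dominated barcodes, from 13.5% against 0.0405% for the erythroid genes. The mitochondrial genome lies at nearly the same share in both, at 3.38% against 3.57%, an order that turns without Gm42418, AY036118, Lars2 and Gm26917 in the total, and the 9 plotted lists of other cell types at the bottom are lower in haemoglobin-dominated barcodes.

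The 15 highest ratios of all genes, among those with at least 10 UMIs from at least 5 of the barcodes, included in falling order those of Alas2, Bpgm, Mkrn1, Ube2l6, Fam46c, Slc25a37, Fam220a, Epb41, Isg20, Apol11b, Fech, Car2, Bnip3l and Rsad2, with log2 ratios of 9.11 down to 5.57. These 15 genes held 15.4% of non-haemoglobin UMIs in haemoglobin-dominated barcodes and 0.0540% in the others. Fam46c, a poly(A) polymerase, had 10765 against 52.0 CPM and Isg20, an RNA exonuclease, 5357 against 28.8 CPM. Apol11b, an apolipoprotein L family gene, was seen in 87 haemoglobin-dominated barcodes and 2 others, at 2935 against 0.470 CPM. Of its 6 UMIs in the others, 5 lay in the 4 barcodes of 28.0% to 46.6% haemoglobin. All of the 15 but Epb41, Fam220a, Apol11b and Rsad2 were also in the erythroid list.

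Gm42418 was the most abundant non-globin feature. This non-coding gene at chr17:39846958-39848788 (+) overlaps the non-coding gene AY036118 and a ribosomal RNA gene on the opposite strand in GENCODE M21 on GRCm38, and how much of its count was ribosomal RNA was not tested. It took 25.3% of non-haemoglobin UMIs in haemoglobin-dominated barcodes (19767 UMIs, in every one of them) against 2.07% in the others, a ratio of 12.3 (12.1 to 12.4). AY036118 was 37.7-fold higher (35.1 to 40.5) and Lars2, which is often counted with them, 6.75-fold higher (6.08 to 7.48). Beyond these, Sec61g, a subunit of the protein channel into the endoplasmic reticulum, reached 12982 against 435 CPM, Oaz1, the inhibitor of polyamine synthesis, 14109 against 802 CPM, and Tpt1, a translationally controlled protein, 17403 against 6691 CPM.

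Messages of cytosolic ribosomal proteins were lower in sum. The 84 cytosolic ribosomal protein genes took 7.16% of non-haemoglobin UMIs in haemoglobin-dominated barcodes (6.98 to 7.34) and 17.3% in the others (17.2 to 17.3). Of the 80 that entered, 66 were lower, where 65.9% of all entered genes were, and Rpl41 alone was higher, at 8740 against 3716 CPM (2.35-fold, 2.18 to 2.54), which leaves 13 in between. The median log2 ratio of the 80 was -1.65, close to the -1.32 of all 1255 genes. Other genes of translation were higher, among them Pabpc1, the poly(A)-binding protein, with 6548 against 468 CPM, and Eif1, an initiation factor, with 4190 against 1925 CPM, both picked after their values were seen. The mitochondrial genome took 3.38% of non-haemoglobin UMIs in haemoglobin-dominated barcodes (3.26 to 3.51) against 3.57% in the others (3.56 to 3.58), an order that turned to 4.64% against 3.65% when Gm42418, AY036118, Lars2 and Gm26917 were left out of the total. None of the 12 transcripts that entered moved by 1 on the log2 scale with or without those 4 genes. One barcode held 338 of its 2640 UMIs.

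Nuclear RNA was present, at a smaller share than in the other barcodes. Malat1, which stays in the nucleus, had 956 UMIs in 206 haemoglobin-dominated barcodes, at 12251 CPM against 49052 CPM in the others (4.0-fold lower, 3.76 to 4.27). One barcode alone held 223 of the 956. The 4 nuclear-retained RNAs together took 1.26% of non-haemoglobin UMIs in haemoglobin-dominated barcodes (1.18 to 1.34) and 5.01% in the others (5.0 to 5.03). The immediate early genes, which answer within minutes to many stimuli, took 0.563% (0.511 to 0.618) against 2.45% (2.44 to 2.46). Of these 18 genes 16 were lower, where 65.9% of all entered genes were, among them Socs3 with 51.3 against 873 CPM, and 2 were in between.

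Messages of other cell types were found at low levels. The 10 lowest ratios, among genes with at least 500 CPM in the other barcodes, belonged to Dcn, S100a11, Aebp1, Igfbp6, Socs3, Slpi, Sult1e1, Nedd4, Ccl5 and Rpl22l1, from -3.53 to -3.0. Dcn, the stromal proteoglycan decorin, still had 81 UMIs in 60 haemoglobin-dominated barcodes, at 1038 CPM (824 to 1290) against 12524 CPM in the others (12.1-fold lower, 9.71 to 15.2). Mfap5, a microfibril gene of the same cells, had none, against 5054 UMIs in the others, at least 10.3-fold lower. The 11 stromal genes summed to 0.369% (0.328 to 0.414) in haemoglobin-dominated barcodes against 3.0% in the others (3.0 to 3.01), and blood endothelial genes to 0.200% (0.170 to 0.234) against 0.489% (0.485 to 0.492). Macrophage, B cell, NK cell, mural, T cell, mesothelial and neutrophil genes had 6 to 25 UMIs each in all 282 barcodes, and these lists took smaller shares than in the others. Adipocyte genes had 9 UMIs, 0.0115% (0.00527 to 0.0219) against 0.00596% in the others, and mast or basophil genes 4, 0.00513% (0.00140 to 0.0131) against 0.00429%, so neither list was lower. Platelet and megakaryocyte genes had 0 UMIs, and the upper end of the interval for their share was 0.00473%. They took 0.00321% in the others, so no difference was detectable at this depth. A stromal UMI was seen in 147 of the 282 barcodes, and 1 barcode with 744 genes held 49 of the 150 Gsn UMIs and 12 of the 81 Dcn UMIs. The UMIs of Dcn per barcode had a Spearman correlation of 0.00 with globin UMIs over the 282 barcodes, and those of Alas2 0.84. Dcn had a median of 0 UMIs, and Alas2 also had a correlation of 0.80 with non-haemoglobin UMIs. The contrast is therefore not separate from depth. The part of free RNA or of second cells in these values was not tested.

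Set against globin RNA, Alas2, Apol11b and Slc4a1 had overlapping intervals inside and outside the haemoglobin-dominated barcodes, while other red cell genes were higher outside. Per 10000 globin UMIs, Alas2 gave 14.4 UMIs in haemoglobin-dominated barcodes (13.8 to 15) and 13.7 in all other barcodes of the library together (9.58 to 18.9). Of those others, the 4 barcodes of 28.0% to 46.6% haemoglobin gave 12.7 (8.48 to 18.2), and the remaining 2024 gave 20.4 from 7 UMIs (8.2 to 42). Slc25a37 gave 2.69 (2.44 to 2.96) in haemoglobin-dominated barcodes and 66.5 (57.0 to 77.1) in the others, where it was seen in 155 barcodes. Bpgm gave 10.4 in haemoglobin-dominated barcodes and 69.5 in the others, and Mkrn1 9.10 and 292. Ube2l6, Fam46c, Bnip3l and Car2 were likewise higher per globin UMI in the others. In the 4 barcodes of 28.0% to 46.6% haemoglobin alone, Slc25a37 gave 2.18 (0.709 to 5.10), Mkrn1 10.5 (6.72 to 15.6) and Bpgm 19.2 (14.0 to 25.8).

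Among the 282 barcodes themselves, barcodes with more globin RNA also had more of the other RNA, with a Spearman correlation of 0.84 between their UMIs. When the barcodes were ordered by non-haemoglobin UMIs and cut into quartiles of 70 or 71, the quartiles held a median of 102, 166, 266 and 502 such UMIs and of 1703, 4288, 7274 and 9723 globin UMIs. The make-up of the RNA was not the same in each. The erythroid list took 4.86%, 10.9%, 16.1% and 14.5% of non-haemoglobin UMIs from the shallowest to the deepest quartile, and Gm42418 took 41.4%, 34.1%, 28.2% and 18.5%. A barcode with a large count of 1 gene is by that count more likely to be in a deep quartile, so these are descriptions.

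Some red cell genes took a larger share of the RNA in the deepest quartile, and others did not. Slc4a1 took 0, 0.0169%, 0.0567% and 0.130% of non-haemoglobin UMIs over the quartiles (0, 2, 11 and 52 UMIs), and Car2 took 0.0144%, 0.0932%, 0.0670% and 0.516% (1, 11, 13 and 206 UMIs). Gpx1 took 0.187%, 0.457%, 1.28% and 2.66%. Slc25a37, by contrast, took 0.489%, 0.440%, 0.572% and 0.567%, and Alas2 took 1.55%, 3.16%, 4.05% and 2.51%, highest in the third. The mitochondrial genome took 1.41%, 2.22%, 2.19% and 4.65%. Ribosomal protein genes went the other way with 9.84%, 7.76%, 6.79% and 6.69%, and stromal genes took 0.720%, 0.339%, 0.284% and 0.358%. One barcode held 71 of the 143 stromal UMIs of the deepest quartile. The falling share of Gm42418 enters all of these values. Without Gm42418 in the total, Slc25a37 took 0.835%, 0.669%, 0.797% and 0.695%, and Alas2 was still highest in the third quartile.

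**Figure D5:**
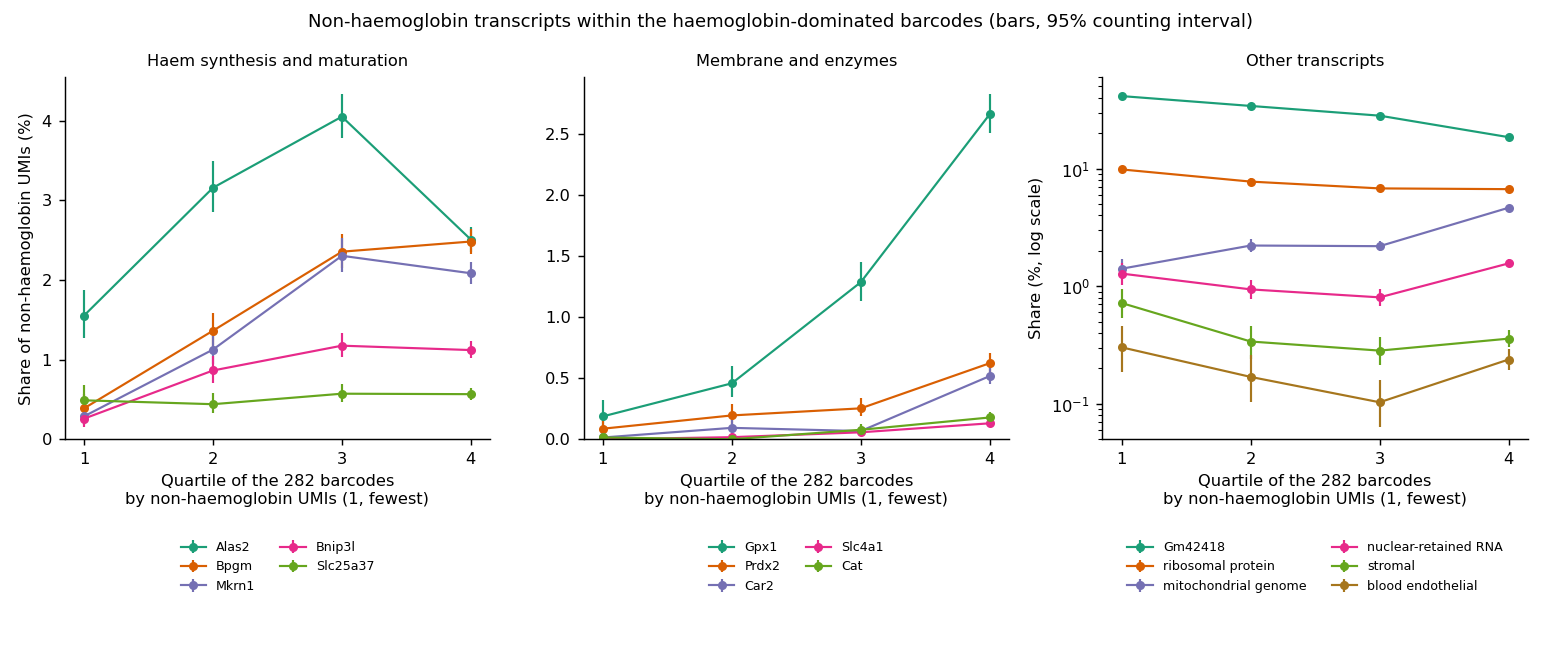
Share of non-haemoglobin UMIs (percent) of named genes and lists in the 4 quartiles of the 282 haemoglobin-dominated barcodes, ordered by non-haemoglobin UMIs from fewest (1) to most (4), with exact 95% counting intervals as bars. The right panel has a log axis. Gpx1 runs from 0.187% to 2.66%, Alas2 is highest in the third quartile at 4.05%, and Gm42418 runs from 41.4% to 18.5%.

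Of the 5 barcodes that met the rule elsewhere, 4 held UMIs of Alas2 and 3 held UMIs of Bpgm. The 3 of the Pdgfrb-Cre library had 3698, 1680 and 6851 globin UMIs, with 2, 0 and 7 UMIs of Alas2 and 3, 0 and 15 of Bpgm. The 2 of the TERT +/+ library had 1036 and 834 globin UMIs, with 1 and 6 UMIs of Alas2 and 1 and 0 of Bpgm. The TERT +/+ library spread its globin RNA differently: its 2 barcodes held 16.3% of its globin UMIs, and 53 barcodes of 3% to 50% haemoglobin held 72.5%. Those 53 had a median of 514 genes and 23 UMIs of Alas2, against 0 UMIs of Alas2 in the 4069 barcodes under 3%.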

How the data were processed

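The authors deposited counts: UMI counts per gene and barcode, raw, from Cell Ranger 3.1.0 and STAR 2.6 on mm10, per the submitters' processing notes. The deposited barcodes have at least 500 UMIs, and doublets were not removed here. From them, the share of each barcode's UMIs on Hba-a1, Hba-a2, Hbb-bs and Hbb-bt was computed, and barcodes of at least 50% were taken. The rest of their RNA was summed over barcodes and set against the other barcodes of the library as CPM of non-haemoglobin UMIs. Genes entered with at least 10 UMIs seen or expected, log2 ratios had 50 CPM added to both sides, and a log2 ratio of 1 counted as past the fold. Intervals at the 95% level are exact (Poisson for CPM, Clopper-Pearson for shares, conditional binomial for ratios). Because every UMI counts as independent, spread between barcodes or animals is not in them, and they can be too narrow. A count of 0 was set to 3 counts over the group for a bound.

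With 1 library per genotype no test was made. Genes were named by rule: the 10 with the most UMIs, the 15 highest ratios from at least 5 barcodes, the 10 lowest with at least 500 CPM in the other barcodes, listed genes, and other globins. The interferon-related genes of the closing section and Sec61g were added after their values were seen. Some genes that the rule or the lists hold are counted in the totals and not reported by name here. The barcodes and all 25 gene lists were chosen with earlier results of these data known. GENCODE M21 held 99.6% of the 31053 gene identifiers and gave the position of Gm42418. Promoters are RefSeq's, and all 4 rule genes matched that table. The ratio and interval steps were tested on simulated data. Python 3.11.15, NumPy 2.4.6, SciPy 1.17.1, pandas 2.3.3 and matplotlib 3.10.9 were used. The Ighm ratio and the alternatives are given in the closing section.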

Additional observations from a re-analysis of the deposited data

How the results depend on the processing

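The number of haemoglobin-dominated barcodes was 279 to 285 under a 30% share, a 70% share or a 500-gene maximum. Of the 169 higher genes, at least 129 stayed higher and of the 827 lower genes at least 292 stayed lower under each alternative. Genes past the fold took the other sign only against other barcodes under 500 genes (15 genes) and as a mean over barcodes (1 gene). Among the 15, Ighm had a log2 ratio of 0.34 there against -1.90 over all other barcodes, and Igkc, picked after its values were seen, 1.26 against -1.70. The number of lower genes and the median depended on the choices. Against other barcodes under 500 genes, 434 genes were lower and the median was -0.94. With 200 CPM added 292 were lower (median -0.68), with a minimum of 20 UMIs 378 (-1.47), and with no minimum 1625 (-0.12). Without Gm42418, AY036118, Lars2 and Gm26917, a choice made after seeing the data, 530 were lower (-1.12). Of the gene lists the mitochondrial genome alone then took the other direction (4.64% against 3.65%), 53 ribosomal protein genes were lower in place of 66, and 1 blood endothelial gene in place of 3. The median was -1.42 with members under 500 genes, -1.45 without mitochondrial and ribosomal protein genes, -1.19 as a mean over barcodes and -1.75 with 10 CPM added. The cause was not tested. The erythroid share of haemoglobin-dominated barcodes was 14.0% with members under 500 genes, 11.7% as a mean over barcodes and 18.5% without those 4 genes. That of the other barcodes was 0.0245% in barcodes under 500 genes and 0.0353% as a mean over barcodes. Over barcodes with at least 500 genes, haemoglobin was 0.402% of UMIs in the Pdgfra-Cre, 0.0253% in the Pdgfrb-Cre and 0.0414% in the TERT +/+ library. Without the haemoglobin-dominated barcodes it was 0.206%, 0.0251% and 0.0719% in the same order. Of 4230 named gene values under the alternatives, 3237 stayed within their counting interval. A change of the UMI minimum (20 UMIs or none) cannot move a gene's ratio, so the 363 values under each were fixed in advance. Of the 363 named genes, 300 left their interval under at least 1 alternative. No paired analysis was possible because each genotype was 1 library. Depth limits the account to genes of about 10 UMIs or more in 78034.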

Other observations

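Rsad2, which makes an antiviral nucleotide, and Isg15, a ubiquitin-like protein, are both best known as interferon-stimulated genes, and both were high in the haemoglobin-dominated barcodes. Rsad2 had 315 UMIs in 103 haemoglobin-dominated barcodes, at 4037 CPM against 35.7 CPM in the other barcodes (113-fold, 97.5 to 131). Isg15 had 144 UMIs in 38 of them, at 1845 against 149 CPM (12.4-fold, 10.4 to 14.6). Other genes linked to that response went both ways. Ube2l6 and Isg20 of the erythroid list were 384-fold and 186-fold higher. Irf7 had 10 UMIs, at 128 against 41.1 CPM (3.11-fold higher, 1.48 to 5.77), while Ifi27l2a was lower at 38.4 against 265 CPM. In the 282 barcodes Ifit1, Oasl2 and Bst2 had 2 UMIs each, Ifit3 had 1, and Mx1 and Usp18 had 0. Of these last genes, Bst2 was 6.91-fold lower than in the other barcodes (1.91 to 57.1), while the intervals of the rest included no difference or gave no bound. Over the quartiles of increasing non-haemoglobin UMIs, Rsad2 took 0.0432%, 0.203%, 0.495% and 0.481% of that RNA. These genes were chosen after their values were seen.

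Rec114, known for its part in meiotic recombination in the germ line, had 109 UMIs in 63 haemoglobin-dominated barcodes, at 1397 against 1.80 CPM in the others. Cd24a, a surface glycoprotein carried by red cell precursors and B cells, had 219 UMIs in 106 haemoglobin-dominated barcodes, at 2806 against 25.3 CPM. Both were also picked after their values were seen.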
